A study of Caenorhabditis elegans with 4 samples.

Results

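Muscle filament genes are described here by 9 listed genes of Caenorhabditis elegans, out of 19971 protein-coding genes on the nuclear chromosomes: unc-54, myo-3, myo-1 and myo-2 (myosin heavy chains), unc-15 (paramyosin), unc-22 (twitchin), lev-11 (tropomyosin), mup-2 (troponin T) and unc-27 (troponin I). They were listed by name and not by a cut on measured values, but with earlier results of these data known. All 9 were found in the gene table. The question put to the data was where the chromatin protein CFP-1 and the histone mark H3K4me3 (trimethylation of histone H3 at lysine 4) were called at these genes.

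The data are 4 ChIP-seq peak lists, labelled as from whole late embryos aged for 3.5 hours. The peak names carry a larval stage abbreviation instead, and the labels were followed. CFP-1::GFP was precipitated with an anti-GFP serum and the mark with an anti-H3K4me3 antibody, and each antibody has 2 lists, numbered RC03 and RC04. All 4 lists come from strain JA1597, in which the dpy-30 promoter drives a CFP-1::GFP transgene inserted at a Mos site on chromosome IV. An anti-GFP list from worms that lack the tag was not used here, and the labels do not say whether the endogenous cfp-1 gene was intact or whether RC03 and RC04 came from separate cultures. Whole embryos hold muscle and all other tissues, so a mark in few cells and a weaker mark in many cells cannot be told apart.

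Muscle contracts when thick filaments of myosin slide along thin filaments of actin. In the worm, unc-54 and myo-3 encode the myosin heavy chains of body wall muscle, whereas myo-1 and myo-2 encode those of the pharynx, the pumping feeding organ. Paramyosin forms the core of thick filaments, twitchin is a giant kinase bound to them, and tropomyosin with the troponins controls the thin filament in response to calcium. CFP-1 is the CXXC zinc finger subunit of the COMPASS complex, which methylates histone H3 at lysine 4, and H3K4me3 typically lies at promoters of transcribed genes.

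For CFP-1 there were 9216 (RC03) and 9256 (RC04) peaks in all, and for H3K4me3 11357 and 12343. Each peak has a score, the −log10 of a p-value or q-value from the authors' peak caller. A score can be compared only within its list, so it is also given as a percentile of all peaks of that list. The median scores were 12.09 and 12.03 in the CFP-1 lists and 6.84 and 6.61 in the H3K4me3 lists. Read depth is unknown. Peak positions are in genome build ce10. Gene positions come from a table of assembly WBcel235, whose coordinates were treated as lying within 100 bp of those of ce10 (chromosome lengths of both builds are taken to differ by no more than about that). That table gives both ends of a gene and not its strand, so the transcript start could not be told from the other end. Peaks were therefore counted within 500 bp of either end, and an end is named by its coordinate, lower or higher. A gene was called for an antibody where both lists had a peak at the same end.

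CFP-1 was called at 6 of the 9 genes: unc-54, unc-15, unc-22, lev-11, mup-2 and unc-27. Over all protein-coding genes, 25.9% were called. H3K4me3 was called at 6 of the 9, with myo-3 in place of unc-22, against 30.6% of all genes. In single lists, 6 genes had a CFP-1 peak at an end in RC03, against 28.0% of all genes, and 8 in RC04, against 28.2%. For H3K4me3 the same 6 genes had a peak at an end in RC03, against 32.5% of all genes, and in RC04, against 32.4%. Both antibodies were called at the same end in 4 of the 9, namely unc-54, unc-15, mup-2 and unc-27, against 23.0% of all genes. The design gives 2 lists for each antibody, and no test was run on these counts. None of the 3 counts includes the pharyngeal myosin genes myo-1 and myo-2, and those for CFP-1 and for both antibodies also lack the body wall myosin gene myo-3.

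**Figure D1:**
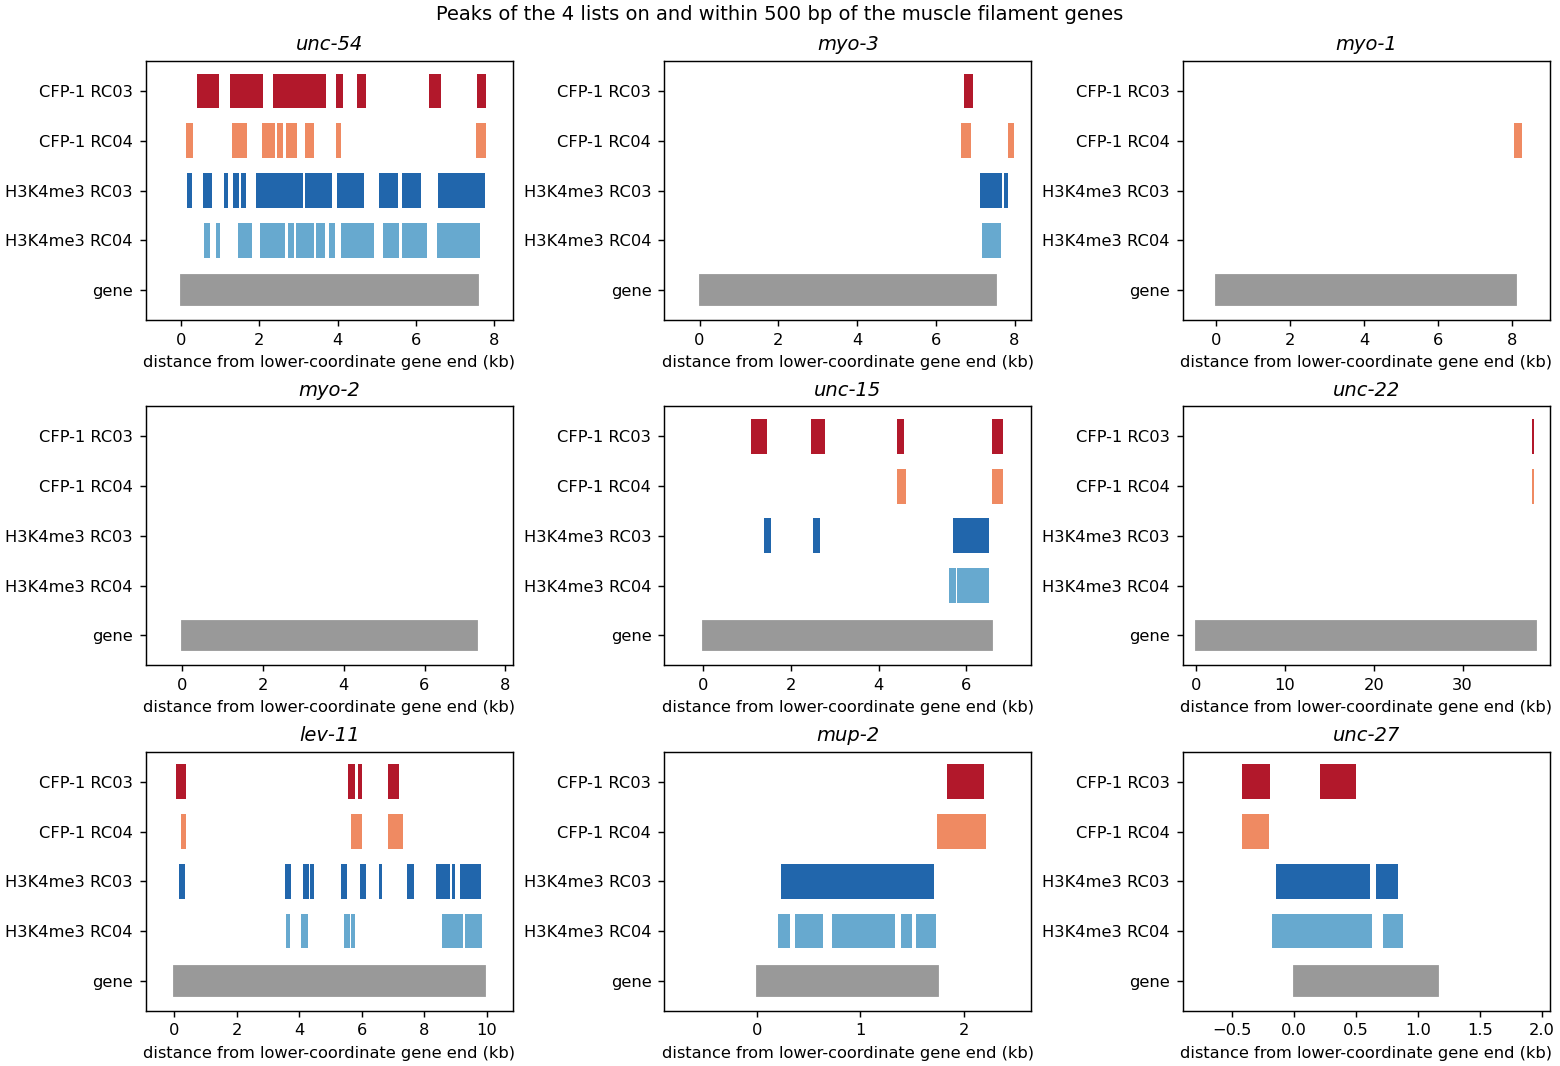
Peaks of the 2 CFP-1 lists (red) and the 2 H3K4me3 lists (blue) on each muscle filament gene and within 500 bp of it. The x axis is the distance from the lower-coordinate end of the gene in kb, and the grey bar is the gene. Peaks run along most of unc-54, lie at 1 end of myo-3, lie at 1 end and inside unc-15, and are missing from myo-2.

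The 4 myosin heavy chain genes, which are of similar length (7288 to 8112 bp), differed in their peaks. At the higher-coordinate end of unc-54, the major body wall myosin, CFP-1 had a peak at chromosome I positions 14863475 to 14863694 in RC03 (score 12.1) and at 14863435 to 14863698 in RC04 (score 6.09). H3K4me3 had a peak there at 14862460 to 14863675 in RC03 (score 15.3) and at 14862432 to 14863551 in RC04 (score 10.9). The 2 antibodies thus shared this end in every list, with H3K4me3 peaks of 1216 and 1120 bp and CFP-1 peaks of 220 and 264 bp. The lower-coordinate end of unc-54 also had a CFP-1 peak in both lists, at 14856300 to 14856872 in RC03 (score 7.32) and at 14856025 to 14856201 in RC04 (score 3.43). These CFP-1 peaks lay at different places and did not overlap each other. H3K4me3 lay within 500 bp of that end in RC03 (score 2.44), and its nearest peak in RC04 was 589 bp away, just outside the limit. The gene aex-5 ends 74 bp from that end of unc-54, so the peaks there are near both genes.

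The other body wall myosin gene, myo-3, had H3K4me3 at its higher-coordinate end, on chromosome V. The peaks lay at 12233951 to 12234491 in RC03 (score 7.94) and at 12233977 to 12234482 in RC04 (score 10.95), and both spanned the end of the gene. CFP-1 at myo-3 was split around the limit of 500 bp. A peak inside the gene recurred in both samples, at 12233527 to 12233769 in RC03 (score 9.35) and at 12233462 to 12233714 in RC04 (score 5.15). Its nearest edge was 574 bp from the end in RC03 and 629 bp in RC04. A further CFP-1 peak of RC04, with a score of 3.84, lay 315 bp outside the end. No CFP-1 peak at myo-3 overlapped an H3K4me3 peak. With a limit of 600 bp the gene was called for both antibodies, but from different CFP-1 peaks, the inside one of RC03 and the outside one of RC04. At 500 bp it was called for H3K4me3 alone, as were 7.43% of all protein-coding genes.

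The pharyngeal myosin genes were not called for either antibody, as myo-3 was not for CFP-1 and unc-22 not for H3K4me3. myo-2 had no peak of any list in the gene or within 500 bp of it, and the closest peak, a CFP-1 peak of RC04 with a score of 4.70, was 3761 bp away. myo-1 had no H3K4me3 peak, and the nearest ones were 5909 bp away in RC03 and 6032 bp in RC04. A single CFP-1 peak of RC04 spanned its higher-coordinate end, with a score of 2.31 at percentile 1.3 of its list, and RC03 had none. At either end of a gene, 61.8% of all protein-coding genes had no peak in any of the 4 lists, so myo-2 shares this state with most genes.

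At unc-15, the paramyosin gene, both antibodies met at the higher-coordinate end on chromosome I. CFP-1 lay at 7383191 to 7383449 in RC03 (score 10.4) and at 7383200 to 7383454 in RC04 (score 16.5). H3K4me3 lay at 7382316 to 7383133 in RC03 (score 16.0) and at 7382407 to 7383124 in RC04 (score 7.11). These CFP-1 peaks began at the end of the gene and ran outwards, and these H3K4me3 peaks lay wholly inside it. Further inside unc-15 were weaker peaks, 3 of CFP-1 in RC03 and 1 in RC04, with scores of 4.62 to 5.61, and 2 of H3K4me3 in RC03 and 1 in RC04, with scores of 1.98 to 2.85. The CFP-1 and H3K4me3 peaks inside the gene overlapped at 2 places, both in RC03. No peak was called within 500 bp of the lower-coordinate end.

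unc-22, the longest of these genes at 38311 bp, encodes the giant protein twitchin. It had 1 CFP-1 peak in each list, on chromosome IV at 12010453 to 12010682 in RC03 (score 8.83) and at 12010465 to 12010681 in RC04 (score 8.11). These lay 325 and 326 bp inside the higher-coordinate end, so the call was lost with a limit of 250 bp. The gene ZK617.26 ends 48 bp from the same end of unc-22. No H3K4me3 peak touched the gene, and the nearest were 772 bp away in RC03 and 1174 bp in RC04, beyond the lower-coordinate end. CFP-1 calls without an H3K4me3 call, as at unc-22, were found at 2.77% of all protein-coding genes.

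The tropomyosin gene lev-11, with 19 RefSeq transcripts in the table, had its peaks spread over the gene. H3K4me3 lay near the higher-coordinate end, on chromosome I, at 14630301 to 14630985 in RC03 (score 15.3) and at 14630468 to 14631020 in RC04 (score 15.1). CFP-1 had no peak at that end. The highest CFP-1 peaks of lev-11 lay well inside the gene, at 14627991 to 14628365 in RC03 (score 17.6) and at 14627990 to 14628486 in RC04 (score 23.6). Their nearest edges were 2729 and 2608 bp from the higher-coordinate end, and neither overlapped an H3K4me3 peak of either sample. The CFP-1 call of lev-11 rested on weaker peaks at its lower-coordinate end, with scores of 6.38 and 3.84. H3K4me3 was present at that end in RC03 (score 4.04) and had no peak there in RC04.

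Both short troponin genes carried both antibodies. At mup-2, the troponin T gene on chromosome X, CFP-1 lay at the higher-coordinate end, at 6410306 to 6410664 in RC03 (score 7.32) and at 6410215 to 6410686 in RC04 (score 7.07). H3K4me3 covered most of the gene, as a single peak of 1480 bp in RC03 (score 10.5) and as 5 separate peaks in RC04, of which the highest scored 7.76. Each H3K4me3 list thus also had a peak within 500 bp of the lower-coordinate end, where the neighbouring gene glt-4 ends 60 bp away.

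At unc-27, the troponin I gene on chromosome X, the order of the peaks was the mirror image. CFP-1 lay outside the lower-coordinate end, at 8789033 to 8789261 in RC03 (score 16.9) and at 8789036 to 8789251 in RC04 (score 11.8). H3K4me3 spanned that end and ran into the gene, at 8789313 to 8790073 in RC03 (score 19.3) and at 8789277 to 8790087 in RC04 (score 22.01). These were the highest H3K4me3 scores among the 9 genes in both lists. A second CFP-1 peak, inside the gene and with a score of 3.06, was called in RC03 only.

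The highest peaks at these genes ranked below the median of the highest peaks at all called genes, in each list. The highest CFP-1 peak at an end of the 6 called genes ranged from percentile 27.9 to 59.1 in RC03 and from 10.6 to 58.3 in RC04. Over all 5177 genes called for CFP-1 the median percentile was 77.67 and 77.95, and 72.5% and 73.5% of them ranked above the highest of the 6. The highest H3K4me3 peak of the 6 genes called for the mark ranged from 53.9 to 70.4 in RC03 and from 51.98 to 74.2 in RC04. The median over all 6107 called genes was 84.4 and 85.5, and 74.7% and 72.8% of them ranked above the highest of the 6. Counting only peaks with a score above the median of their list left no muscle filament gene called for CFP-1, against 19.7% of all genes, and all 6 called for H3K4me3, against 26.5%. These 6 H3K4me3 calls thus rested on peaks above the median in both lists, and none of the 6 CFP-1 calls did. In single lists, CFP-1 passed the median at unc-27 in RC03 (percentile 59.1, against 49.65 in RC04). It also did so at unc-15 in RC04 (58.3, against 45.5 in RC03).

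**Figure D2:**
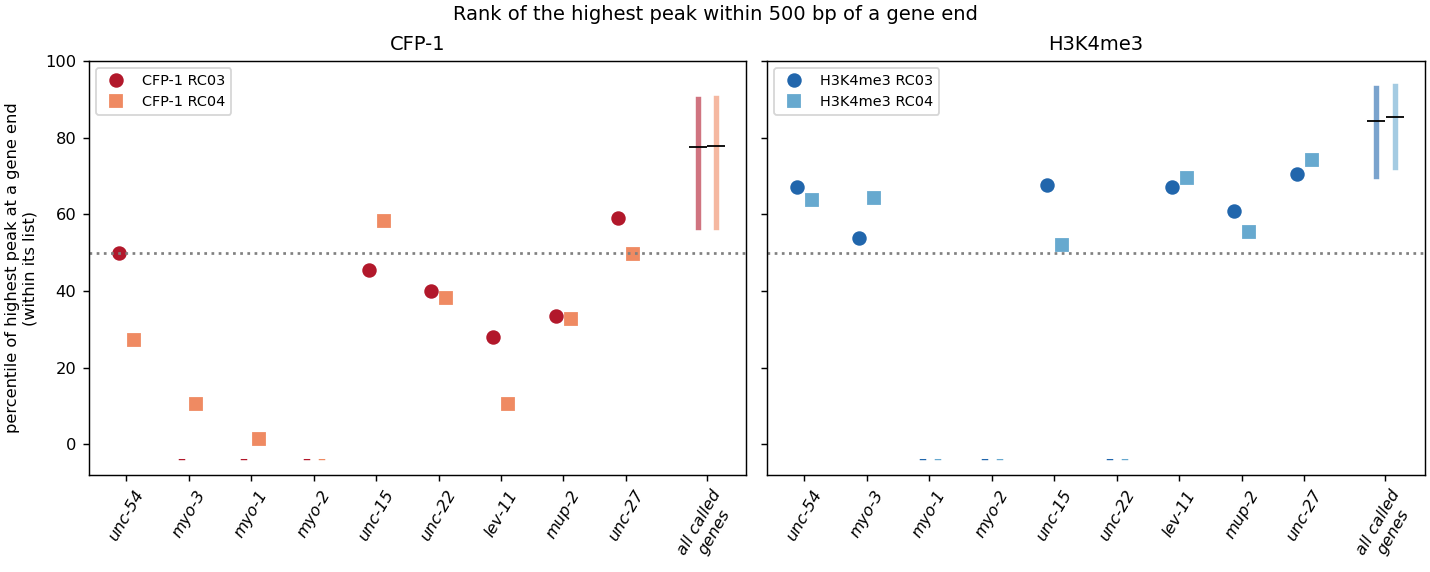
Percentile, within its list, of the highest peak within 500 bp of an end of each muscle filament gene, for CFP-1 (left) and H3K4me3 (right); circles are RC03, squares RC04, and a dash below 0 marks a list without a peak. At the right of each panel, vertical bars span the quartiles over all called genes and black ticks mark their medians (77.67 and 77.95 for CFP-1, 84.4 and 85.5 for H3K4me3); the dotted line is percentile 50.

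The 2 samples gave different orders of some genes. unc-15 had the higher CFP-1 percentile in RC04 (58.3, against 45.5 in RC03), whereas unc-54 had the higher one in RC03 (49.9, against 27.2 in RC04). The H3K4me3 percentile of unc-15 was 67.7 in RC03 and 51.98 in RC04, and that of myo-3 was 53.9 and 64.2. The genes called for an antibody are therefore not ranked among each other here, apart from unc-27, which had the highest H3K4me3 percentile in both lists (70.4 and 74.2).

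At the 4 ends with peaks in all 4 lists, the midpoint of the highest CFP-1 peak lay outside the gene and that of the highest H3K4me3 peak inside it. This does not hold for every peak in full. At unc-27 the H3K4me3 peaks began outside the gene, and a lower CFP-1 peak of RC03 inside it overlapped them. At mup-2 the RC03 H3K4me3 peak of 1480 bp lay within 500 bp of both ends. The midpoint of the highest CFP-1 peak was outside the gene by 102.5 and 84.5 bp at unc-54, by 123 and 130 bp at unc-15, by 258 and 223.5 bp at mup-2 and by 309 and 312.5 bp at unc-27, in RC03 and RC04. The midpoint of the highest H3K4me3 peak was inside the gene by 414.5 and 490.5 bp at unc-54, by 472.5 and 431.5 bp at unc-15, by 782.5 and 121.5 bp at mup-2 and by 237 and 226 bp at unc-27. This order was found at 15.8% of the 5277 ends with peaks in all 4 lists over all protein-coding genes. At 3 of the 4 ends the highest peaks of both antibodies did not overlap in either sample, with gaps of 57 and 75 bp at unc-15, 121 and 12 bp at mup-2 and 51 and 25 bp at unc-27. Over all 5277 ends, 2.8% had no overlap in either sample and 93.6% had overlap in both, as did unc-54.

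Peak rank and the distance to other genes moved with this arrangement, and their part in it was not tested. A set of 453 ends of other genes had highest peaks that ranked no higher than those of the 4 genes in any list. Of these, 23.6% had the CFP-1 midpoint outside and the H3K4me3 midpoint inside in both samples, and 18.3% had no overlap in either. Among the 1521 ends of other genes with no other gene end within 1000 bp, which holds for all 4 ends here, the shares were 24.1% and 4.54%. With both restrictions they were 27.1% and 21.7% of 240 ends. These comparisons were added once the arrangement was known, and the ends of all genes mix transcript starts with the opposite ends.

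**Figure D3:**
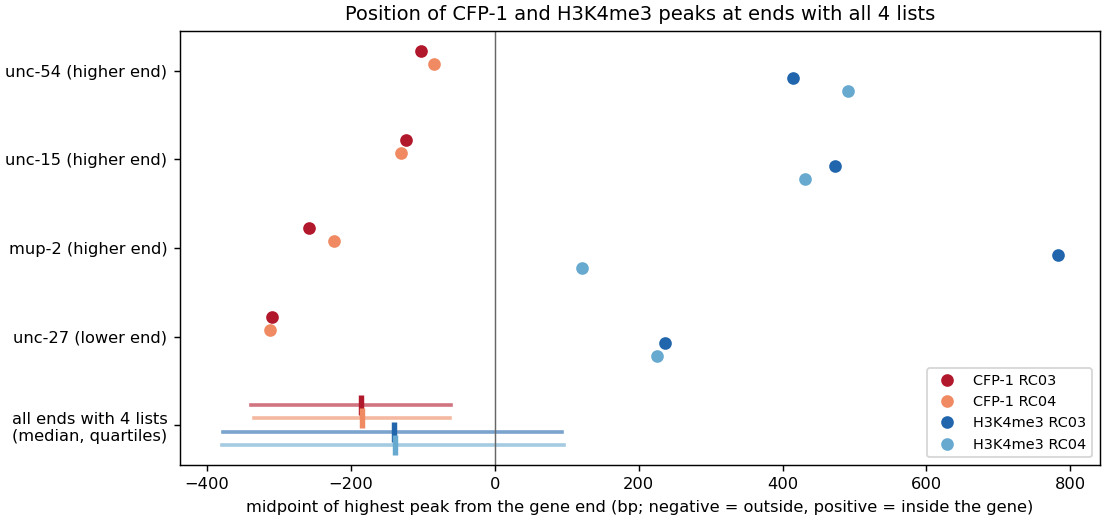
Midpoint of the highest CFP-1 peak (red) and H3K4me3 peak (blue) at the 4 ends of muscle filament genes with peaks in all 4 lists, in bp from the gene end, negative outside and positive inside the gene. The lowest row gives medians (ticks) and quartiles (lines) over all 5277 such ends; at the 4 named ends each CFP-1 midpoint is negative and each H3K4me3 midpoint positive.

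Peaks of both antibodies also lay along the body of unc-54. Of its 7582 bp, CFP-1 peaks covered 45.7% in RC03 and 22.9% in RC04, and H3K4me3 peaks covered 70.4% and 69.1%. The CFP-1 cover came from 7 and 8 separate peaks and the H3K4me3 cover from 11 and 12, with CFP-1 scores of 3.04 to 12.1 and H3K4me3 scores of 2.44 to 15.3. All 15 CFP-1 peaks of unc-54, pooled over both lists, overlapped an H3K4me3 peak of at least 1 sample. With so much of the gene under H3K4me3 peaks, most peaks placed in it would overlap, so no conclusion is drawn from this count. The same share over all CFP-1 peaks was not counted. At least 4 separate peaks in every list were found in 0.285% of all protein-coding genes (57 of 19971). This share is over genes of all lengths, and longer genes have room for more peaks. The limit of 4 was not planned. lev-11 missed it in CFP-1 RC04 alone, with 4 and 3 CFP-1 peaks and 11 and 6 H3K4me3 peaks in RC03 and RC04. unc-54 was the only muscle filament gene to reach the limit. Of 4280 genes between 0.5 and 2 times as long, 0.0701% in CFP-1 RC03, 0.678% in CFP-1 RC04, 0.257% in H3K4me3 RC03 and 0.28% in H3K4me3 RC04 were covered to at least the same share, unc-54 included.

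H3K4me3 covered at least 25% of the gene in both lists at unc-54, mup-2 and unc-27, 3 of the 9, against 9.84% of all protein-coding genes. The cover was 84.2% and 73.7% at mup-2 and 68.0% and 68.4% at unc-27, both of which are short (1757 and 1166 bp). CFP-1 covered at least 25% in both lists at none of the 9, against 1.84% of all genes, since unc-54 reached 22.9% in RC04. lev-11 came next for H3K4me3, with 26.3% and 18.6%, followed by unc-15 with 17.0% and 13.2%. myo-3 had 5.22% and 4.88% and unc-22 none, so the body wall genes ranged from hardly any cover to most of the gene. The limit of 25% was set once the cover of these genes was known.

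**Figure D4:**
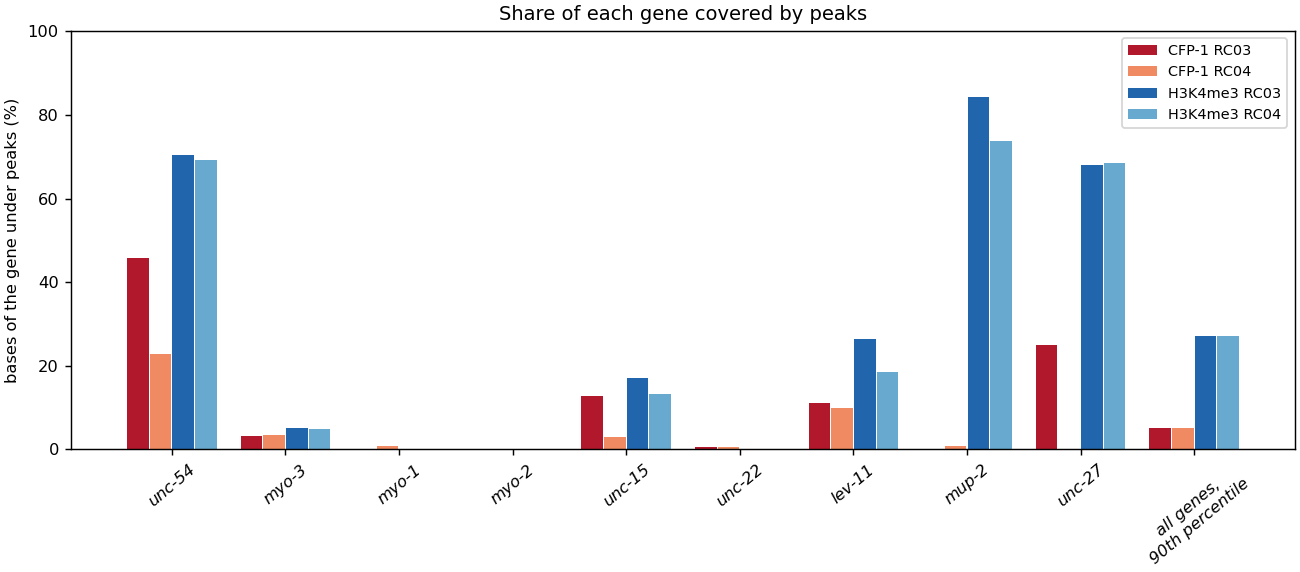
Share of the bases of each muscle filament gene that lie under peaks (%), for the 4 lists. The last group gives the 90th percentile over all protein-coding genes (5.17% and 5.08% for CFP-1, 27.2% in both H3K4me3 lists); unc-54, mup-2 and unc-27 lie above it for H3K4me3 in both lists.

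A further list held 21 genes of filament proteins and of factors that act on filaments. Of these, 13 (61.9%) were called for CFP-1 and 14 (66.7%) for H3K4me3, against 25.9% and 30.6% of all protein-coding genes. Both were called at the same end in 11 (52.4%), against 23.0% of all genes. The 11 include unc-45, unc-60 and unc-78, which are not structural parts of the filaments. The highest mean percentiles among the 21 were those of the actin genes act-2 and act-4. act-2 had CFP-1 scores of 88.5 and 117 and H3K4me3 scores of 79.1 and 56.9. For act-4 the CFP-1 scores were 51.7 and 73.1 and the H3K4me3 scores 78.9 and 85.1. Actin genes are near-identical in their coding parts and some lie side by side, so reads and peaks may be shared among them. No peak of any list lay at an end of tni-3 and tni-4 (troponin I), tnt-4 (troponin T) and tnc-2 (troponin C), 4 of the 21, against 61.8% of all protein-coding genes.

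Of 15 genes of the attachment structures that anchor filaments to the cell membrane, 7 were called for CFP-1, 9 for H3K4me3 and 7 for both, against 25.9%, 30.6% and 23.0% of all protein-coding genes. The vinculin gene deb-1 had CFP-1 scores of 138 and 154 and H3K4me3 scores of 97.2 and 96.3, with a mean percentile of 97.8 over the 4 lists. The parvin gene pat-6 had CFP-1 scores of 100.3 and 124 and H3K4me3 scores of 70.1 and 77.1. Both ranked above every one of the 9 filament genes in each list. pat-2, atn-1, alp-1 and lim-9 had no peak at an end, 4 of the 15, against 61.8% of all genes.

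Of 10 genes of cytoplasmic myosins, which act outside the sarcomere, 3 were called for CFP-1, 4 for H3K4me3 and 3 for both, against 25.9%, 30.6% and 23.0% of all protein-coding genes. The highest mean percentiles over the 4 lists were those of the light chain gene mlc-5 and the non-muscle myosin gene nmy-2. mlc-5 had CFP-1 scores of 54.8 and 16.4 and H3K4me3 scores of 76.7 and 86.2. At its lower-coordinate end the midpoints of the highest peaks lay outside the gene, by 659 and 448.5 bp for CFP-1 and by 493 and 472.5 bp for H3K4me3. Whether these peaks belong to a neighbouring gene was not looked up. nmy-2 had CFP-1 scores of 38.6 and 32.7 and H3K4me3 scores of 72.5 and 64.7. nmy-1, hum-1, hum-5, hum-6 and hum-7 had no peak at an end, 5 of the 10, against 61.8% of all genes. These shares lie near those of all protein-coding genes, and no difference between the lists of genes was tested.

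**Figure D5:**
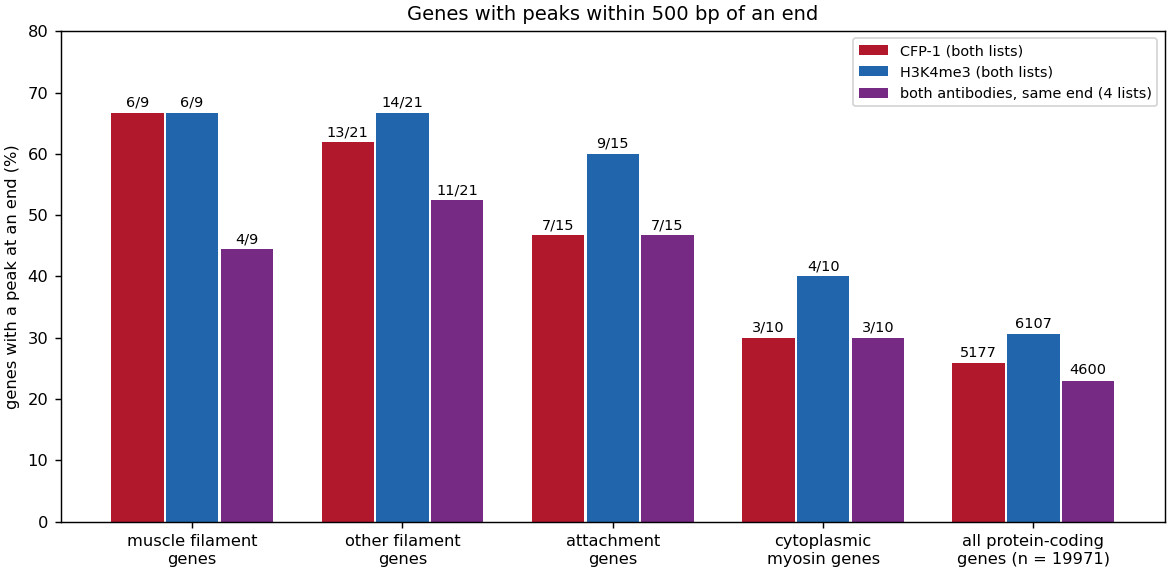
Share of genes (%) with peaks within 500 bp of an end in both lists of CFP-1 (red), both lists of H3K4me3 (blue) or all 4 lists at the same end (purple), with the number of genes above each bar. From left to right are the 9 muscle filament genes, 21 other filament genes, 15 attachment genes, 10 cytoplasmic myosin genes and all 19971 protein-coding genes, for which the shares are 25.9%, 30.6% and 23.0%.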

How the data were processed

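Per the submitters' processing notes, reads were aligned with BWA to build ce10 and peaks were called with MACS2 2.0.10. Each sample has its own deposited list of peaks, 4 lists in all, and column 5 holds the caller's score as −log10 of a significance value, the authors' own figure. Whether that value is a p-value or a q-value is not stated, and the control, the handling of duplicates and the cut-off are likewise not given in the sources used. The peak names carry a larval stage abbreviation, whereas the labels give late embryos, and the labels were followed.

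Gene ends were taken from a RefSeq gene table of assembly WBcel235, which gives no strand. Transcript starts had been planned and both ends were used in their place. Peaks were turned to 1-based positions, and a peak counted where its nearest edge was within 500 bp of an end. Overlap means at least 1 bp. Calls were counted over all 19971 protein-coding genes, and peak cover as the share of a gene's bases under peaks. No p-value was computed, since the members were chosen with earlier results of these data known and peak lists hold no read counts. An exact test of 2 lists against 2 also cannot pass 0.05.

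Named were all 9 members, of each further list the 2 genes with the highest mean percentile, and the genes without a peak where these were 5 or fewer. The members and lists were chosen with earlier results of these data known. Of 22 other filament genes 21 were matched by symbol. CG counts, motifs and sequences were not run, as no sequence was used here. The code was tested on simulated peaks and against bedtools 2.31.1. Python 3.11.15, numpy 2.4.6, pandas 2.3.3 and matplotlib 3.10.9 were used.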

Additional observations from a re-analysis of the deposited data

How the results depend on the processing

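Of 85 values under alternative settings, 71 stayed within 1.5 times the value reported. With the limit at 250 to 1000 bp, with ends moved by 100 bp either way, and with peak midpoints, CFP-1 was called at 5 to 7 of the 9 genes, H3K4me3 at 5 or 6 and both at 3 to 5, against 21.5 to 31.9% of all genes for CFP-1 and 23.6 to 35.8% for H3K4me3. Only peaks above their list's median gave 0 for CFP-1 and 0 for both antibodies. By construction, the lower-coordinate end alone gave 3 for CFP-1, 2 for H3K4me3 and 1 for both, and 14.8% and 18.7% of all genes; the higher-coordinate end alone gave 4, 6 and 3, and 15.3% and 19.2% of all genes. Over all genes of the table, with many short RNA genes, shares were 17.5% for CFP-1 and 20.3% for H3K4me3. With 1 list left out, CFP-1 was called at 6 to 8 genes, against 28.0 to 28.2% of all genes. H3K4me3 was called at 6, against 32.4 to 32.5%, and both at 4 to 5. For both antibodies the share of all genes was counted only under the reported rule (23.0%), so the other counts for both have no matching share. Cover of at least 25% by CFP-1 was found at 0 to 1 gene with 1 list left out and at 1 (unc-54) in either list. Cover of at least 10% in both lists was found at 1 for CFP-1 and 5 for H3K4me3. Shares of all genes under these cover settings were not counted, so nothing is read from these counts. With the sample number as a replicate block, both antibodies lay at 6 genes in lists of equal number, with myo-3 and lev-11 added. This rule is looser than a call in all 4 lists. Its share over all genes was not counted, so nothing is read from the 6. The labels do not say that a number marks a shared extract. Starts of all transcripts and CG counts were not run. Depth is unknown, so a missing peak is not absence of binding or of the mark.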

Other observations

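Peak cover of the gene body was also read over the 21 other filament genes, after the cover of unc-54 had been seen. H3K4me3 covered at least 25% of the gene in both lists at 8 of the 21, against 9.84% of all protein-coding genes: act-1, act-2, act-3, act-4, the myosin light chain genes mlc-1, mlc-2 and mlc-3, and the troponin C gene pat-10. CFP-1 did so at 5 of the 21, against 1.84% of all genes, namely the 4 actin genes and mlc-2. At act-4 the CFP-1 peaks covered 98.8% of the gene in RC03 and 95.4% in RC04, and the H3K4me3 peaks 98.9% and 97.9%. At pat-10 the CFP-1 cover was 48.4% and 12.3%, and the H3K4me3 cover 93.7% and 92.5%. At least 4 separate peaks in every list, as at unc-54, were found at none of these 21 genes.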
